A study of Homo sapiens with 4 samples.

Results

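The 75 genes described here encode the proteins of the mitochondrial ribosome. They were taken as every gene whose symbol is MRPL or MRPS with a number and an optional letter A, B or C, measured by a probe set annotated to exactly 1 gene, with pseudogenes left out. They make up 75 of 19775 genes and 140 of 54613 probe sets on the array, and the rule itself uses no measured value, although it was set with earlier results of these data known. RNA from a pair of human cell lines, COLO-320DM and 320-IWR, was hybridised to 4 arrays of the type GeneChip Human Genome U133 Plus 2.0, with 2 per line. COLO-320DM cells come from a colorectal cancer with activated Wnt/β-catenin signaling, and 320-IWR is the subline obtained from it by continuous culture with IWR-1, an inhibitor of the poly(ADP-ribose) polymerase tankyrase. 320-IWR is therefore a single resistant line, and the sources used here do not state whether IWR-1 was present when its RNA was taken, nor whether the arrays of a line came from separate cultures. A p-value then reflects no more than how these arrays scatter, which may be technical.

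The mitochondrial ribosome translates the few messages encoded by mitochondrial DNA, which specify core subunits of the respiratory chain and of ATP synthase. Its ribosomal RNAs come from mitochondrial DNA, whereas all of its proteins are encoded in the nucleus, made in the cytosol and imported. Many of these proteins have a homologue in the bacterial ribosome, and the others were added during the evolution of mitochondria. MRPL symbols stand for the large subunit, which joins amino acids, and MRPS symbols for the small subunit, which reads the message. MRPS18A and MRPS30 are placed in the large subunit in structures of the particle, but they were counted here by their symbols.

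The values are RMA intensities, on a linear scale and normalized across the arrays, and a gene was read from its brightest probe set. Median intensities were 41.8 (COLO-320DM) and 41.6 (320-IWR) on the arrays numbered 1 and slightly lower on those numbered 2. No detection calls were used, so the distance of a value above background is unknown, and 2 arrays per line set the limit of precision. Of the epithelial markers, CDX2 was at 3403 and 3263 in COLO-320DM and at 2723 and 2790.2 in 320-IWR. KRT8 (4.78-fold, limma adjusted p = 0.0155) and KRT18 (3.17-fold, adjusted p = 0.0322) were lower and KRT20 (3.43-fold, adjusted p = 0.0412) was higher in 320-IWR. The epithelial adhesion genes EPCAM and CDH1 were at or below 35.1 on every array. The other epithelial markers, KRT19, VIL1, LGALS4, CLDN4 and CLDN7, were at or below 70.0 on every array, and none of them was called. None of the 8 leukocyte, 8 fibroblast and 8 endothelial markers was called at an adjusted p under 0.05 and 2-fold. Of all genes 0.192% were called higher and 0.399% lower, so lists this short are expected to hold few called genes or none. A call concerns the difference between the lines, not the presence of a marker. COL3A1, the brightest of these markers, was at 292 and 1193 in COLO-320DM and at 278 and 1187 in 320-IWR.

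Promoter sequences from RefSeq (GRCh38.p14) were found for 67 of the 75 genes. The 5 printed here precede the gene with the largest difference between the lines (MRPL39), 2 genes with a large difference that carry the core letters of an ETS factor site in capitals (MRPL54 and MRPL48), and 2 genes that start back to back with another gene. For MRPL46 they are 250 of the 319 bases between its start and that of MRPS11, and for MRPL50 all 232 bases between its start and that of ZNF189. MRPL54 and MRPL48 were picked for these letters. The letters were absent from the 250 bases before MRPL39, and before MRPL16 and MRPL11, which also had large differences (0.55 each) and are not printed. ETS factors include GABPA, a known activator of nuclear genes for mitochondria. Each printed sequence is written 5′ to 3′ on the strand of the MRPL gene and ends at the base before its transcription start.
MRPL39, chr21:25607482-25607731, minus strand: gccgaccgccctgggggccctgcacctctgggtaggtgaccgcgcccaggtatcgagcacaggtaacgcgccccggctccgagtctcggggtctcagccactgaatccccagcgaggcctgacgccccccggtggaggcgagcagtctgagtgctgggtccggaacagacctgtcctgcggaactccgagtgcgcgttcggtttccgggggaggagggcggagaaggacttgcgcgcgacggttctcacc
MRPL54, chr19:3762432-3762681, plus strand: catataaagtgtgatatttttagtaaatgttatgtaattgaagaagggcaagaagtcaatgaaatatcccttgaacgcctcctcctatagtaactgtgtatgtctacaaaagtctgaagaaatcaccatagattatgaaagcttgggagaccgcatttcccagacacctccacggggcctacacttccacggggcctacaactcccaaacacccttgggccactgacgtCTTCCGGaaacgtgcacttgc
MRPL48, chr11:73787624-73787873, plus strand: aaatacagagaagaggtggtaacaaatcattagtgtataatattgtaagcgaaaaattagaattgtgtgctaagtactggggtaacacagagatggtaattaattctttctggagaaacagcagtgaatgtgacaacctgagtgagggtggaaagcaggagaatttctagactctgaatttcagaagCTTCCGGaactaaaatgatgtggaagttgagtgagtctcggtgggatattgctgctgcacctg
MRPL46 (MRPS11 upstream), chr15:88467389-88467638, minus strand: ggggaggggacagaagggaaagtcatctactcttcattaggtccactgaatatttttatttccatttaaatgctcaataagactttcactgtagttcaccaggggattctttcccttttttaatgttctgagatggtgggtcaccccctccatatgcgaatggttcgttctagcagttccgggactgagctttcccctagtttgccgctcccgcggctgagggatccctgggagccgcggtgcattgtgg
MRPL50 (ZNF189 upstream), chr9:101398619-101398850, minus strand: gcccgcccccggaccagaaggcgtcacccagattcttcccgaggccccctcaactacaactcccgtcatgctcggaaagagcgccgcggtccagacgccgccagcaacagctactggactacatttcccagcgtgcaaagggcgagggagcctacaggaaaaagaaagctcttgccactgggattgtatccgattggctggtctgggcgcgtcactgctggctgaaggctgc

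The genes of the mitochondrial ribosome were a little higher in 320-IWR than in COLO-320DM as a group, and none passed the test. The mean log2 value was higher in 320-IWR for 58 of the 75 genes, against 54.2% of all genes and 53.8% of the genes with a mean log2 value of at least 8. The median difference was 0.12 on the log2 scale, against 0.02 over all genes. With the arrays normalized by cyclic loess the median was 0.08, with 52 of 75 higher. In bulk RNA a change in some of the cells and a change in all of them cannot be told apart.

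A gene was called at a limma p, Benjamini-Hochberg adjusted over all probe sets tested, under 0.05 together with at least a 2-fold difference. By this rule 0.192% of all genes were called higher, 0.399% were called lower, and 0 of the 75 members were called in either direction. The smallest adjusted p of a member was 0.0954, for MRPL39. At an unadjusted p under 0.05, 13 members were higher and 0 lower, against 5.91% and 6.36% of all genes. Among the genes with a mean log2 value of at least 8, which every member reached, these shares were 9.36% and 7.90%. Fitting replicate number as a block turned the 13 into 21 and the 0 into 2. That block also raised the called genes of the whole array from 117 to 328. The matching shares of all genes were not counted under the block, so the 21 cannot be set against them. Fewer members were higher at this p after 1 array was left out, but 1 line then kept a single array.

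Both 320-IWR arrays lay above both COLO-320DM arrays for 29 members, and below them for 4. Such separation upward was found in 21.0% of all genes and in 25.4% of the brighter ones, and downward in 17.5% and 20.4%. The arrays of the lines overlapped for the other 42 members. An exact permutation test of 2 arrays against 2 cannot go below a two-sided p of 0.333, so separation alone is not a test.

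**Figure D1:**
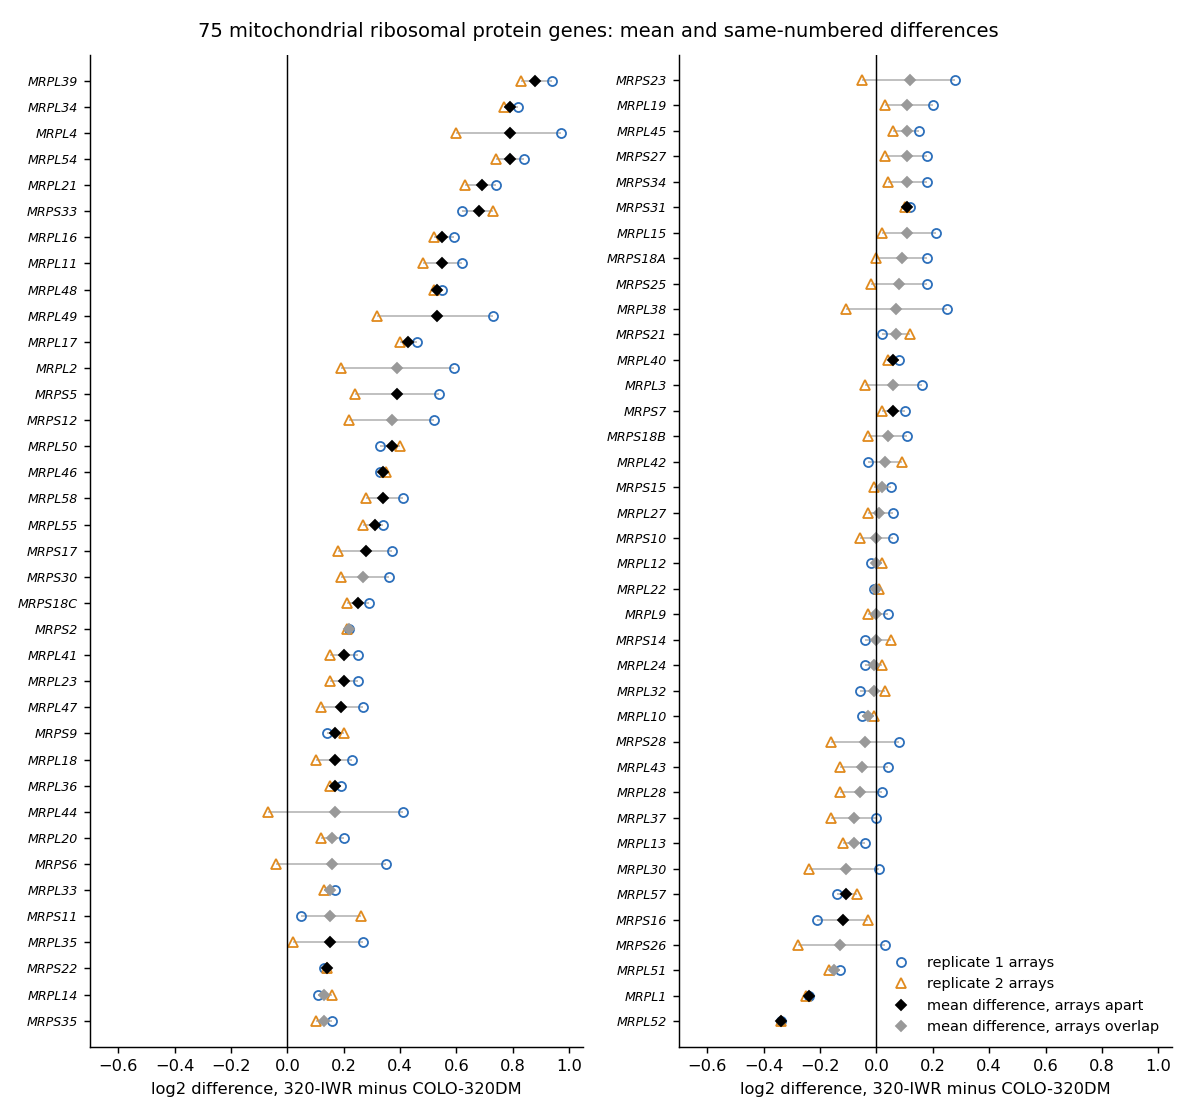
Each row is 1 of the 75 genes, and the x axis is the log2 difference, 320-IWR minus COLO-320DM. Open circles and triangles are the differences of the arrays numbered 1 and 2, and diamonds are the mean differences, black where the arrays of the lines did not overlap. MRPL39 is at the top with 0.88 and MRPL52 at the bottom with -0.34, and most circles lie to the right of their triangles.

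The size of the group's difference rested in part on 1 array. The median log2 value of the 75 members was 10.23 and 10.45 in COLO-320DM and 10.59 and 10.62 in 320-IWR, so that COLO-320DM replicate 1 was the lowest array. The median difference between the arrays numbered 1 was 0.18, and between those numbered 2 it was 0.06. In 57 of the 75 members the difference was larger between the arrays numbered 1. Both differences were above 0 in 45 members, against 37.1% of all genes, and both were below 0 in 8. Without COLO-320DM replicate 1 the median difference of the members was 0.07, with 47 of 75 higher. Without COLO-320DM replicate 2 the median was 0.20.

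The differences were small for most members. They stayed under 0.2 on the log2 scale, in either direction, for 49 of the 75, and reached 0.5 in 10, all of them higher in 320-IWR. These are values of the brightest probe sets. A less bright probe set of MRPL43 was at -0.50, with overlapping arrays.

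MRPL39, a mitochondrion-specific protein of the large subunit related to threonyl-tRNA synthetase, had the largest difference. Its intensity was 813 and 831 in COLO-320DM and 1559 and 1473 in 320-IWR, a clear gap between the lines with little spread within them. This is 1.84-fold (log2 0.88 ± 0.12, SE, n = 2 arrays per line, limma adjusted p = 0.0954). MRPL34, a small protein with a bacterial homologue, stood at 976 and 1067 in COLO-320DM and at 1718 and 1817 in 320-IWR. Its arrays were as clearly apart, at 1.73-fold (log2 0.79 ± 0.12, SE, limma adjusted p = 0.125).

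MRPL4, whose bacterial homologue lines the tunnel through which the new protein leaves, was at 753 and 1104 in COLO-320DM and at 1479 and 1678 in 320-IWR. The lines did not overlap, but the COLO-320DM arrays differed among themselves, and the difference of 0.79 had an SE of 0.22 (limma adjusted p = 0.334). All 3 of its probe sets gave a similar difference, from 0.78 to 0.80. MRPL54, another mitochondrion-specific protein of the large subunit, was at 418 and 629.7 in COLO-320DM and at 751 and 1050.2 in 320-IWR. Its replicates were the most uneven of these genes, and its difference was 0.79 with an SE of 0.27 (limma adjusted p = 0.447).

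MRPL21, which has a bacterial homologue, was at 1203 and 1395 in COLO-320DM and at 2015 and 2165 in 320-IWR (log2 0.69 ± 0.14, SE, limma adjusted p = 0.194). MRPS33, a mitochondrion-specific protein, was the small subunit gene with the largest difference. Its intensity was 1211 and 1051 in COLO-320DM and 1867 and 1741 in 320-IWR (log2 0.68 ± 0.14, SE, limma adjusted p = 0.195). Both genes had every 320-IWR array above every COLO-320DM array.

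MRPL16 belongs to the core of the large subunit near the catalytic centre. It was at 1241 and 1388 in COLO-320DM and at 1864 and 1994 in 320-IWR (log2 0.55 ± 0.13, SE, limma adjusted p = 0.248). MRPL11, at the base of the stalk that receives translation factors, was at 599 and 802 in COLO-320DM and at 919 and 1123 in 320-IWR (log2 0.55 ± 0.20, SE, limma adjusted p = 0.481). The gap between the lines was narrow for MRPL11, since its higher COLO-320DM array approached the lower 320-IWR array.

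The stalk proteins MRPL10 and MRPL12 did not show such a gap. MRPL10, which anchors the stalk, was at 1082 and 1121 in COLO-320DM and at 1047 and 1117 in 320-IWR. MRPL12, the flexible part of the stalk, was at 2020.4 and 2228 in COLO-320DM and at 1993 and 2256 in 320-IWR. The arrays of the lines overlapped for both genes, with differences of -0.03 ± 0.12 and 0.00 ± 0.14 (SE). The sign of the difference of MRPL12 turned with several settings, among them equal array medians.

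Only 4 members had both 320-IWR arrays below both COLO-320DM arrays. MRPL52, a mitochondrion-specific protein of the large subunit, was at 1333 and 1489 in COLO-320DM and at 1051 and 1178 in 320-IWR (log2 -0.34 ± 0.14, SE, limma adjusted p = 0.539). MRPL1, whose bacterial homologue forms a mobile arm beside the exit site of tRNA, was at 1828 and 1979 in COLO-320DM and at 1546 and 1668 in 320-IWR (log2 -0.24 ± 0.12, SE). Their 2 same-numbered differences were nearly equal, at -0.34 and -0.34 for MRPL52 and at -0.24 and -0.25 for MRPL1.

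The remaining 2 genes of this kind differed less. MRPS16, with a bacterial homologue, was at 1013 and 999 in COLO-320DM and at 879 and 978 in 320-IWR (log2 -0.12 ± 0.12, SE). MRPL57, a small mitochondrion-specific protein, was at 4841 and 4726 in COLO-320DM and at 4385 and 4503 in 320-IWR (log2 -0.11 ± 0.12, SE). Each difference was no larger than its standard error.

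**Figure D2:**
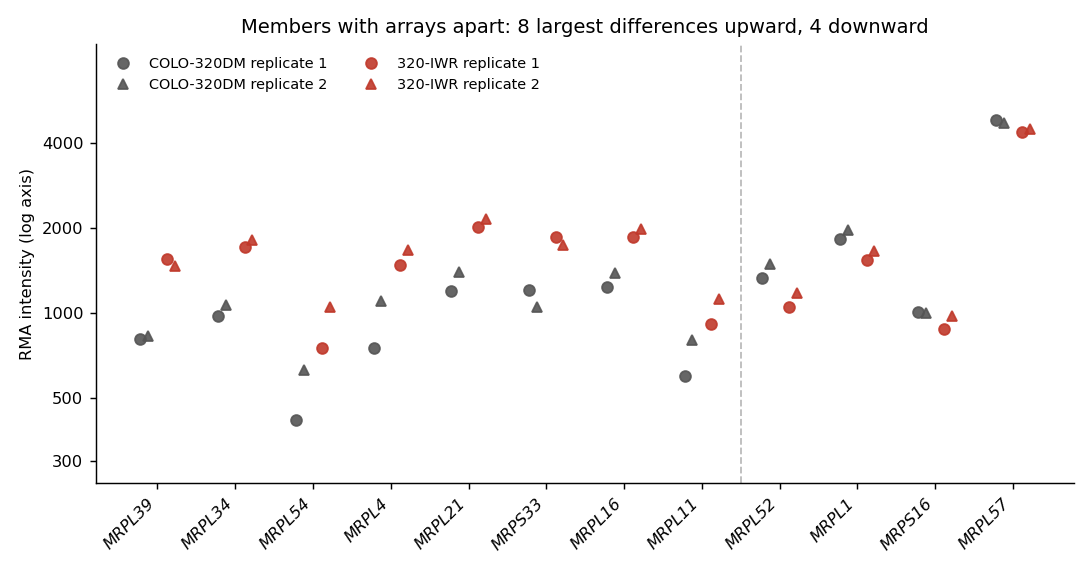
Intensities of the 12 named genes whose arrays did not overlap between the lines, on a log axis. Grey stands for COLO-320DM and red for 320-IWR, circles for replicate 1 and triangles for replicate 2. The 8 genes left of the dashed line have both red points above both grey points, with MRPL39 from 813 and 831 to 1559 and 1473, and the 4 on the right have both below.

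MRPS12, a protein of the decoding centre, was at 1475 and 2293 in COLO-320DM and at 2120.0 and 2672 in 320-IWR. The arrays of the lines overlapped, and its difference was 0.37 with an SE of 0.26. The 3 paralogues of bacterial ribosomal protein S18 differed in how firmly they were measured. MRPS18C was at 1562 and 1608 in COLO-320DM and at 1910.1 and 1861 in 320-IWR, with all arrays apart (log2 0.25 ± 0.12, SE, limma adjusted p = 0.624). MRPS18A (0.09 ± 0.16, SE) and MRPS18B (0.04 ± 0.31, SE) overlapped. MRPS18B was at 1047 and 1129.6 on the arrays numbered 1 and at 1712 and 1671 on those numbered 2, so that it differed more between replicate numbers than between lines.

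The subunits and the origins of the proteins gave similar values. Of the 48 MRPL genes 35 were higher in 320-IWR, with a median difference of 0.14, and 21 had arrays apart and higher against 3 lower. Of the 27 MRPS genes 23 were higher, with a median of 0.11, and 8 had arrays apart and higher against 1 lower. Apart and higher were thus 43.8% of the MRPL and 29.6% of the MRPS genes. Of all genes with a mean log2 value of at least 8, 25.4% were. At an unadjusted p under 0.05 there were 11 MRPL and 2 MRPS genes, all higher, against 9.36% of those brighter genes. The 46 genes with a bacterial homologue had a median difference of 0.12 and the 28 mitochondrion-specific ones 0.11, while MRPL55 was not assigned. Whether the groups differ was not tested.

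More than 1 probe set was annotated to 37 of the members. In 22 of these all probe sets had the same sign of difference, and in 15 they did not. The brightest probe set of MRPS30 was at 0.27 and its others at -0.36 and -0.44, all with overlapping arrays. MRPS31, a mitochondrion-specific protein of the small subunit, had probe sets apart in opposite directions. Its brightest probe set was at 1161 and 1100.1 in COLO-320DM and at 1264 and 1177 in 320-IWR, and a dim one was at 42.1 and 50.0 against 35.1 and 39.9. Of all 140 probe sets of members, 98 were higher in 320-IWR, 43 with arrays apart, and 9 were lower with arrays apart. The same shares were not counted over all probe sets. By gene, 21.0% of all genes were apart and higher and 17.5% apart and lower.

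The members with the largest differences lay among chromosomal neighbours that were also higher in 320-IWR. This grouping was made after the values were seen, and it is given as a description. For each member the 5 nearest other genes on each side with a mean log2 value of at least 6 were read, members themselves left out. All of the 10 members with a difference of at least 0.5 had at least 8 of 10 neighbours higher. So had 8 of the other 65 members (12.3%) and 16.7% of the 10546 genes used as neighbours. The neighbours of these 10 had a median difference of 0.34, taken over the medians per member. The 16.7% covers genes of any difference, and those with at least 0.5 were not counted apart. Most of the 10 lie on chromosomes 11 and 19, where 76.3% and 72.6% of the other genes were higher. Of 9 genes of the other lists of mitochondrial translation with such a difference, 7 had such neighbours. In all 18 members had at least 8 higher neighbours. With the smaller of the same-numbered differences this number was 8, and 7 of the 10 largest were among them. With at least 16 of 20 neighbours higher it was 11, all of the 10 included. With _x_at and _s_at probe sets left out it was 7 of 44 members, and of the 10 largest only 5 could then be placed, each with such neighbours.

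MRPL39 on chromosome 21 was the clearest of them. All 10 of its neighbours were higher, with a median of 1.03, among them CXADR (1.52), USP25 (1.10), ATP5PF (0.68), a subunit of ATP synthase, and GABPA (0.57). MRPL34 on chromosome 19 had 10 of 10 neighbours higher, with a median of 0.46, and MRPL21 on chromosome 11 had 10 of 10, with a median of 0.35. Any positive difference counts as higher. Near MRPL21, IGHMBP2 and MRGPRF-AS1 were at 0.00 after rounding, and their arrays overlapped, as did those of LRP5 and CPT1A. The other neighbours of MRPL21 had arrays apart and higher. MRPS33 on chromosome 7 had 10 of 10 as well, with a median of 0.44, among them NDUFB2 (0.44), a subunit of respiratory complex I, and SSBP1 (0.51), which binds single-stranded mitochondrial DNA.

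The lowest member had neighbours of the opposite kind. None of the 10 neighbours of MRPL52 on chromosome 14 was higher in 320-IWR, and their median was -0.34, equal to the difference of MRPL52 itself. They include OXA1L (-0.39), which inserts newly made mitochondrial proteins into the inner membrane, and DAD1 (-0.26). MRPL1 on chromosome 4 had 3 of 10 neighbours higher, with a median of -0.15. Neighbours and members share arrays and location, so they are not independent, and copy number was not measured, so its part in the result was not tested.

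**Figure D3:**
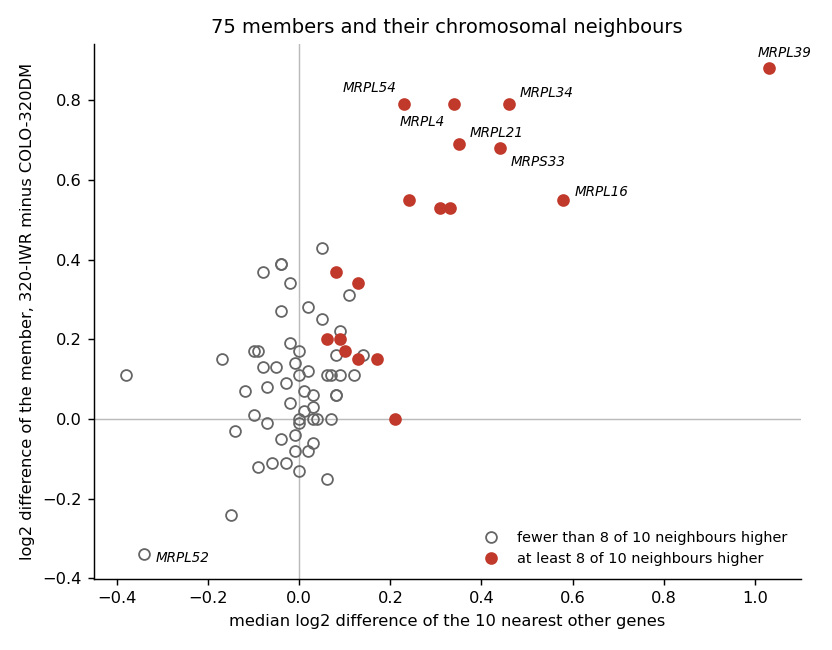
Each point is 1 of the 75 members. The x axis is the median log2 difference of its 10 nearest other genes on the chromosome and the y axis its own log2 difference, both 320-IWR minus COLO-320DM. Filled points have at least 8 of 10 neighbours higher, and all 10 members at or above 0.5 are among the 18 filled points (8 with the smaller of the same-numbered differences), with MRPL39 at the upper right (1.03 and 0.88) and MRPL52 at the lower left (-0.34 and -0.34).

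The members were also set beside other genes with the same kind of neighbours. The 18 members with at least 8 of 10 higher neighbours had a median difference of 0.53, and 14 of them had arrays apart and higher. The other 57 had a median of 0.08, with 40 higher (70.2%), 15 with arrays apart and higher and 4 with arrays apart and lower. Over the genes used as neighbours, the 1764 with at least 8 higher neighbours had a median difference of 0.22, and the other 8782 had -0.01, with 47.2% higher. Among genes with fewer than 8 higher neighbours, a higher mean was thus more frequent in the members than in the rest. This rests on the sign of the mean alone and was not tested. Arrays apart and higher were not counted for the genes used as neighbours. They were found in 25.4% of all genes with a mean log2 value of at least 8.

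All 7 members on chromosome 11 had arrays apart and higher in 320-IWR, namely MRPL21, MRPL16, MRPL11, MRPL48, MRPL49, MRPL17 and MRPL23. MRPL48 was at 1197 and 1059 in COLO-320DM and at 1747 and 1519 in 320-IWR (log2 0.53 ± 0.14, SE). MRPL49 was at 908 and 1191 in COLO-320DM and at 1509 and 1489 in 320-IWR (log2 0.53 ± 0.17, SE). MRPL48, MRPL49, MRPL17 and MRPL23 were named after their values were seen. The 596 other genes of chromosome 11 had a median difference of 0.22, with 76.3% higher and 49.3% with arrays apart and higher.

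On chromosome 19 the 4 members, MRPL34, MRPL54, MRPL4 and MRPS12, had a median difference of 0.79, and the 701 other genes of 0.16, with 72.6% higher. The 64 members on other chromosomes had a median difference of 0.11. Of these 47 were higher, 19 with arrays apart and higher and 4 with arrays apart and lower. Among all genes with a mean log2 value of at least 8, 53.8% were higher. Arrays apart were found in 25.4% of them upward and in 20.4% downward. These shares include chromosomes 11 and 19, where 49.3% and 42.1% of the other genes had arrays apart and higher. The shares without these chromosomes were not counted, so the 64 members lack a matching background. Chromosome 17 carried 8 members with a median of 0.06, and chromosome 1 carried 8 with a median of 0.01.

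**Figure D4:**
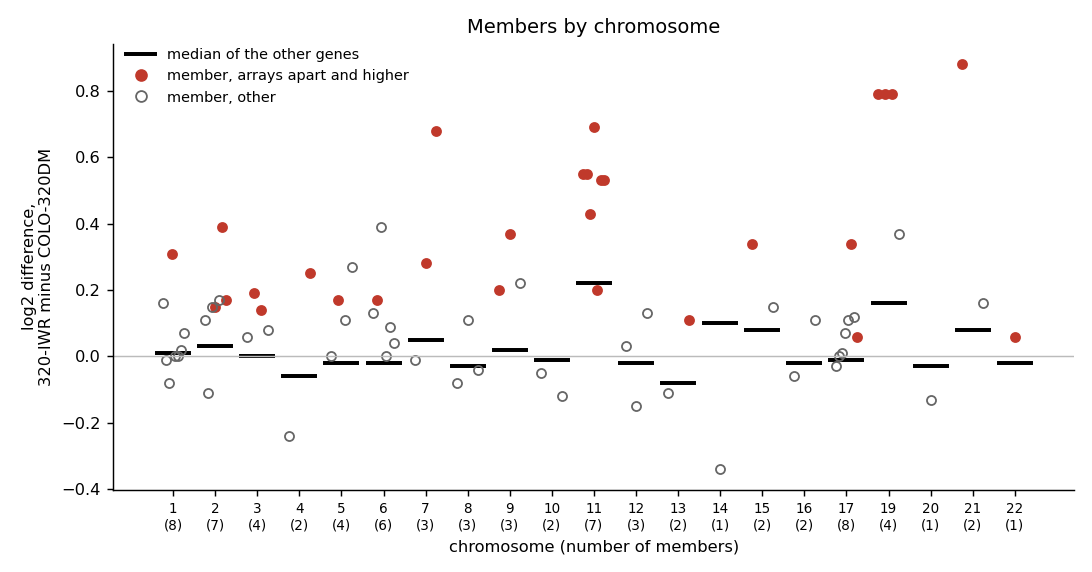
Log2 differences of the members, 320-IWR minus COLO-320DM, by chromosome, with the number of members in parentheses. Filled points have both 320-IWR arrays above both COLO-320DM arrays, and black bars are the medians of the other genes of the chromosome. All 7 points of chromosome 11 are filled, and both chromosome 11 (0.22) and chromosome 19 (0.16) have raised bars.

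The promoters of the members were searched on both strands for 4 motifs in the 250 bases before the start. The ETS core CCGGAAG was in 31.3% of the 83 promoters of members and in 8.52% of all 35116 promoters. The NRF1 motif, bound by another activator of nuclear genes for mitochondria, was in 12% and 5.07%. The E-box CACGTG was in 9.64% and 6.34%, and the YY1 motif ATGGCGGC in 4.82% and 1.3%. With the 50 bases after the start included, the YY1 share was 22.9% against 3%. A match is a description of the letters and was not related to the differences between the lines.

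Of the members, 20 started back to back with another gene within 1000 bases, which made 19 pairs. The 2 genes of a pair had differences of the same sign in 10 pairs and of opposite sign in 9. MRPL49 and FAU, which encodes a protein of the cytosolic small subunit, start 48 bases apart, and both had arrays apart and higher. FAU was at 7680.1 and 7662 in COLO-320DM and at 10307 and 10609 in 320-IWR (log2 0.45). MRPL54 and APBA3, 989 bases apart, were also both apart and higher, at 0.79 and 0.25.

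MRPL50 and ZNF189 went apart in opposite directions across the 232 bases printed above. MRPL50 was at 1183 and 983 in COLO-320DM and at 1489.8 and 1301 in 320-IWR (log2 0.37). ZNF189 was at 434 and 436 in COLO-320DM and at 355 and 379 in 320-IWR (log2 -0.25). MRPL46 and MRPS11, a pair of members 319 bases apart, had differences of 0.34 and 0.15, and the arrays of MRPS11 overlapped. These pairs were named after their values were seen.

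The other genes of mitochondrial translation were read from lists, and none of the listed genes was called in either direction. Of all genes 0.192% were called higher and 0.399% lower, so few or no calls are expected in lists of this length. Of 4 further proteins of the particle, GADD45GIP1, a mitochondrion-specific protein of the large subunit, was at 858 and 994 in COLO-320DM and at 1428 and 1531 in 320-IWR (log2 0.68 ± 0.14, SE, limma adjusted p = 0.197). PTCD3, a protein of the small subunit, was at 1940.3 and 1501 in COLO-320DM and at 1277 and 1185 in 320-IWR (log2 -0.47 ± 0.17, SE, limma adjusted p = 0.472). The arrays of both genes were apart, in opposite directions.

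Of 11 mitochondrial translation factors 10 were higher in 320-IWR, 7 with arrays apart, with a median difference of 0.10. The 10 include GFM1 and MTRF1L, at 0.00 after rounding and with overlapping arrays. Of all genes with a mean log2 value of at least 8, 53.8% were higher and 25.4% were apart and higher. A list of 11 genes is short, and no difference from that share was tested. MTFMT, which formylates the initiator methionyl-tRNA, had the largest difference among them (0.54). The 24 genes of mitoribosome assembly had a median of 0.07, from METTL17 (-0.33) to MPV17L2 (0.91). MPV17L2 was at 115 and 135 in COLO-320DM and at 232 and 238 in 320-IWR (limma adjusted p = 0.12).

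The 15 mitochondrial tRNA synthetases had a median of 0.02 and held the widest range. FARS2, which charges the tRNA of phenylalanine, was at 4288 and 2607 in COLO-320DM and at 1237 and 988 in 320-IWR, 3.02-fold lower (log2 -1.60 ± 0.28, SE, limma adjusted p = 0.155). NARS2, the enzyme for asparagine, was higher by 0.57. The 10 genes of mitochondrial transcription and mRNA had a median of 0.12, with TFB2M, a transcription initiation factor, at 0.56.

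The 12 regulators of mitochondrial gene programmes had a median of 0.16. The nuclear receptor ESRRA was at 334 and 358 in COLO-320DM and at 534 and 506 in 320-IWR (log2 0.59 ± 0.12, SE, limma adjusted p = 0.203). Of the subunits of the ETS factor GABP, GABPA and GABPB1 were apart in opposite directions and GABPB2 overlapped (log2 -0.13). GABPA, named after its value was seen, was at 258 and 258 in COLO-320DM and at 389.9 and 379 in 320-IWR, and GABPB1 was at 479 and 531 in COLO-320DM and at 334 and 367 in 320-IWR (log2 -0.53).

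The ribosomal proteins of the cytosol, the nearest comparable family, had a median difference of 0.00. Of these 57 genes 27 were higher in 320-IWR, 12 had arrays apart and higher and 3 apart and lower, from RPL34 (-0.46) to FAU (0.45). The 12 make 21.1%, against 21.0% of all genes. The mitochondrial family had 58 of 75 higher and 29 (38.7%) with arrays apart and higher. The cytosolic family was much brighter, with a median log2 value of 13.69 against 10.46, and 50 of its 57 genes were above the brightest member. Whether differences are compressed at this brightness was not tested. Without COLO-320DM replicate 1 the median difference was 0.05 in the cytosolic and 0.07 in the mitochondrial family. Without COLO-320DM replicate 2 it was -0.06 and 0.20, so the distance between the families depended on the array left out. The difference between the families was not tested either.

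**Figure D5:**
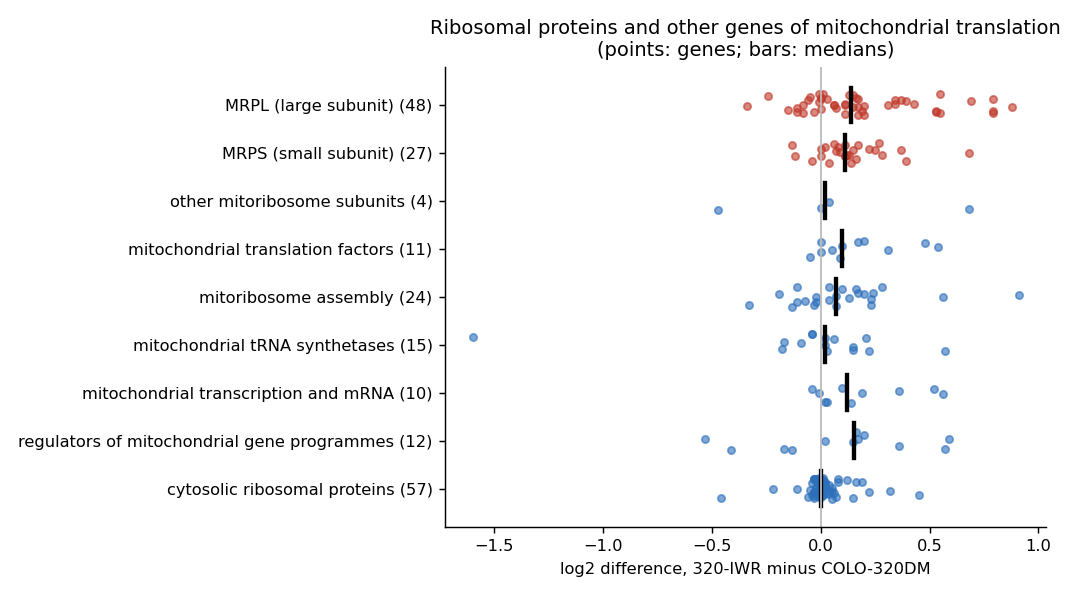
Log2 differences, 320-IWR minus COLO-320DM, of the genes of each list (points) with the median (black bar) and the number of genes in parentheses. The members are in red, with medians of 0.14 for the large and 0.11 for the small subunit, and the cytosolic ribosomal proteins centre on 0.00.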

How the data were processed

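Total RNA was hybridised to 4 one-colour arrays, 2 of COLO-320DM and 2 of 320-IWR, grouped by their labels. Per the labels, the deposited intensity values were made by the authors with RMA (no version given), and the paper names GeneSpring GX. The values are linear, from 3.51 to 22475, and log2 was taken with a floor of 1. Of 54675 probe sets 62 controls were left out. The others were tested with limma 3.58.1 (R 4.3.3, lmFit and eBayes), with cell line as the only term and 2.78 prior degrees of freedom. GEO's platform annotation gave 41091 probe sets 1 symbol, 1801 several and 11721 none. A gene was read from its brightest probe set with 1 symbol.

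The members and lists were chosen with earlier results of these data known. Named members are the 8 largest differences in each direction with arrays apart (4 downward), those at an unadjusted p under 0.01, MRPS18A to MRPS18C, MRPL10, MRPL11, MRPL12, MRPS12 and those with probe sets apart in opposite directions. From the other lists, called genes and the largest separated difference each way are named. Chromosome order is that of RefSeq GRCh38.p14. No promoter entry was matched for 8 members. The fit was tested on simulated data. The alternatives were a replicate block, each array left out, array medians made equal, cyclic loess, dim probe sets removed, a trended robust prior, 16 added before log2, the mean of all probe sets, no _x_at or _s_at probe sets, no fold limit and the smaller same-numbered difference.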

Additional observations from a re-analysis of the deposited data

How the results depend on the processing

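None of the 75 members was called under any of the 14 alternatives. The smallest adjusted p of a member was 0.0525 with the replicate number as a block (MRPL39) and 0.511 without 320-IWR replicate 1. Same-numbered arrays of the lines deviated together (Pearson's r 0.66 over all probe sets and 0.86 over the members, across features), but the labels do not say that the numbers pair the cultures. The replicate block raised the members higher at an unadjusted p under 0.05 from 13 to 21 and those lower from 0 to 2, and the genes called overall from 117 to 328. Leaving out 1 array at a time gave 5 to 11 such members. It also gave 36 to 52 members apart and higher and 8 to 15 apart and lower, where fewer arrays have to be separated. Members lower at an unadjusted p under 0.05 numbered 1 with cyclic loess and 2 with 16 added before log2. Members apart and lower numbered 7 with cyclic loess and 2 with the mean of all probe sets. Without _x_at and _s_at probe sets 44 members were left, of which 35 were higher (21 MRPL and 14 MRPS), 14 apart and higher, 2 apart and lower, and 6 higher at an unadjusted p under 0.05. At least 8 of 10 higher neighbours were then found for 7 members. Of the 10 members with the largest main difference, 6 had a probe set left, 5 could be placed among neighbours, and all 5 had such neighbours. With the smaller of the same-numbered differences, 8 members had such neighbours in place of 18, and 7 of the same 10 members did. With 20 neighbours, at least 16 of them higher, a choice made after seeing the data, 11 members and all of the same 10 did. The median difference of the members ranged from 0.04 (smaller same-numbered difference) to 0.20 (without COLO-320DM replicate 2) and was 0.08 with cyclic loess.

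Of 258 values of the 19 named members under the alternatives, 10 changed direction, all of them near 0 in the main values, and no cause was tested. With 1 array left out MRPL12 ranged from -0.09 (without 320-IWR replicate 2) to 0.09 (without 320-IWR replicate 1), MRPL10 from -0.07 to 0.02, MRPS18A from -0.06 to 0.25 and MRPS18B from -0.32 (both without COLO-320DM replicate 1) to 0.39. MRPL12 was at 0.00 with equal array medians, 0.03 with the mean of all probe sets and 0.07 without _x_at and _s_at probe sets. MRPS31 was at -0.02 with the mean of all probe sets. Where a line kept 1 array, its spread was taken from the other line. The distance of a signal above background was unknown on every array.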

Other observations

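Of 73 genes placed from the other lists of mitochondrial translation, 9 had a log2 difference of at least 0.5, and 7 of these had at least 8 of 10 neighbours higher in 320-IWR, against 10 of the other 64. On chromosome 19, MPV17L2 (log2 difference 0.91) had 10 of 10 neighbours higher, with a median of 0.44. GADD45GIP1 (0.68) and POLRMT (0.52), the mitochondrial RNA polymerase, had 8 of 10 each on the same chromosome, with medians of 0.36 and 0.29. On chromosome 11, ESRRA (0.59) had 9 of 10, with a median of 0.29, and METTL15 (0.56), which methylates the ribosomal RNA of the small subunit, had 8 of 10, with a median of 0.41. TFB2M (0.56) on chromosome 1 had 9 of 10, with a median of 0.23. GABPA (0.57), beside MRPL39 on chromosome 21, had 10 of 10. Among the 9 the others were NARS2 (0.57) on chromosome 11, with 6 of 10 neighbours higher and a median of 0.20, and MTFMT (0.54) on chromosome 15, with 5 of 10 neighbours higher and a median of 0.04. In the other direction, FARS2 (-1.60) on chromosome 6 had 8 of 10 neighbours higher and a median of 0.18. GABPB1 (-0.53) on chromosome 15 also lay among neighbours of the other direction, 7 of 10 higher with a median of 0.16. POLRMT, METTL15 and GABPA were named after their values were seen, and the part of copy number was not tested.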
